A study of Danio rerio with 4 samples.

Results

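Photoreceptors catch light in an outer segment, a stack of membrane discs that grows from a modified cilium. An opsin in the disc membrane activates transducin, transducin lifts the inhibitory subunit from the phosphodiesterase PDE6, and the resulting fall in cyclic GMP closes channels in the plasma membrane. Arrestin helps to switch the response off, and recoverin helps to adapt it. Further proteins transport retinaldehyde, shape the discs and hold the retina together. In zebrafish the first rods and cones differentiate around the stage sampled here, so photoreceptors are a small part of the embryo. Where in the embryo the transcripts counted here were made was not tested.

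The genes described are 8 of the 32512 annotated genes and were selected by name. They are opn1lw2 (a red-sensitive cone opsin), pde6g (the inhibitory gamma subunit of PDE6), sagb (an arrestin), rcvrna (a recoverin), abca4b, prom1b, tulp1a and rs1a. They were chosen on their hace1 MO against control MO values in these same libraries, so their differences between the groups are given as a description, without a test, and support nothing further.

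RNA came from whole embryos of wild-type Tübingen zebrafish at 48 hpf. The hace1 MO group had been injected with a splice-blocking morpholino against hace1, a HECT-type E3 ubiquitin ligase, and the control MO group with a standard control morpholino. Each group had 2 libraries, A and B, each made from 3 pooled RNA samples of about 100 embryos, and the labels do not say that the pools came from separate clutches. A p-value therefore reflects only how far pooled libraries differ, and this may be technical. The agents are shown because they are all that the labels give to tell the groups apart, and each is written 5′ to 3′ in lower case.
hace1-HECT morpholino: ccctcgaactgttagacagaataaa
standard control morpholino: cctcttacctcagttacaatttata

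Estimated gene counts summed to 9856173 and 10413981 in hace1 MO libraries A and B, and to 5192490 and 8596019 in control MO libraries A and B. The level of hace1 was 13.7 and 13.5 CPM (counts rescaled to a common depth by the trimmed mean of M values) in hace1 MO libraries, against 18.6 and 13.5 CPM in control MO libraries. Its log2 fold change of -0.19 ± 0.22 (SE) had an adjusted p of 0.647 by limma-voom, and a splice-blocking morpholino need not lower the gene count. Control libraries differed more from each other (median absolute log2 difference 0.24 over 6390 well-counted genes) than hace1 MO libraries did (0.13). Of the annotated genes, 59.3% were listed at 0 in every library, among them genes that every cell uses, such as rps6, so a gene listed at 0 may be missing through the counting.

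All 8 genes lay lower in both hace1 MO libraries than in either control MO library, and their log2 fold changes ran from -2.29 (rs1a) to -1.07 (pde6g), with a median of -1.51 against 0.01 over all 10832 genes tested. Every one of the 8 passed the filter on low counts. All 8 were also among the 150 genes called lower at an adjusted p below 0.05, which are 1.38% of the genes tested. A further 149 genes (1.38%) were called higher. Both hace1 MO libraries lay below both control MO libraries for 26.9% of the genes tested. With the exonic length trend removed 4 of the 8 were called, without hace1 MO library A 1 and without hace1 MO library B 0. Since the genes were chosen by this contrast, nothing is read from these counts, and no p-value is given for a member. Their summed level was 73.5 and 61.2 CPM in hace1 MO libraries, against 148 and 201 CPM in control MO libraries. In a whole embryo, fewer photoreceptors and less RNA in each cannot be told apart.

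**Figure D1:**
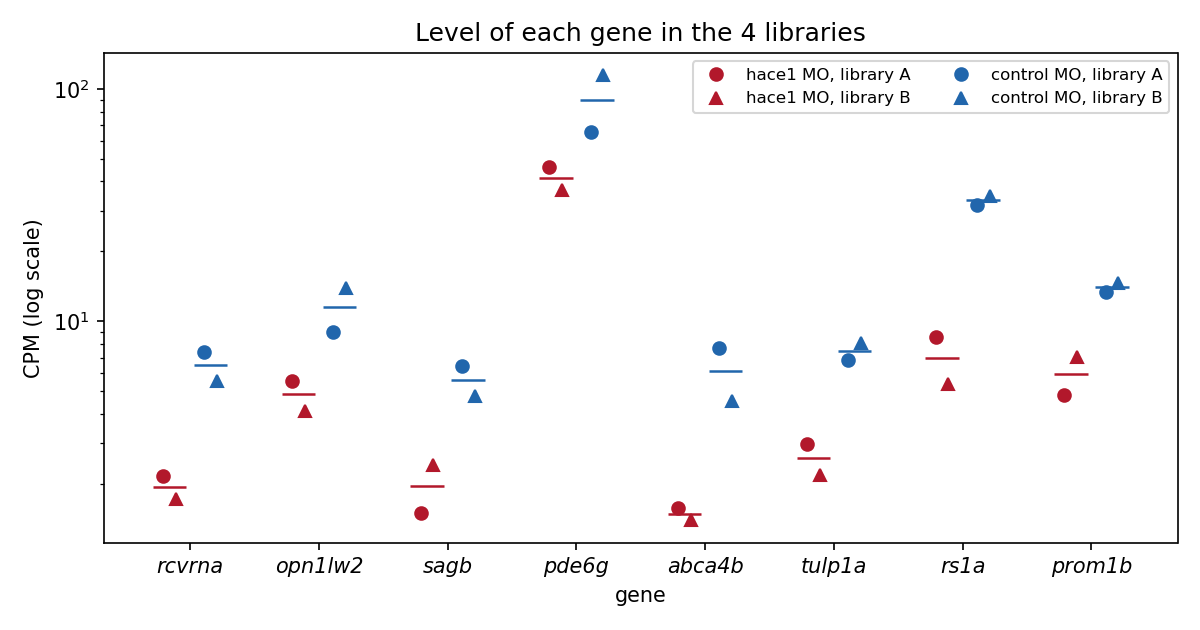
Level of each of the 8 genes in every library, in CPM on a log axis, with hace1 MO libraries (red) left of control MO libraries (blue), circles for library A, triangles for library B and a bar at the mean of each pair. The red and blue points of a gene never overlap; the nearest approach is in opn1lw2 and pde6g, where control library A lies well below control library B.

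opn1lw2 (ENSDARG00000044861, Zv9 chr11:26414605-26416765, plus strand), the only cone or rod opsin among the 8, stood at 5.57 and 4.14 CPM in hace1 MO libraries, against 8.998 and 14.0 CPM in control MO libraries. The means were 4.85 ± 1.01 CPM in hace1 MO embryos and 11.5 ± 3.53 CPM in control MO embryos (SD, n = 2 each), a log2 fold change of -1.26 ± 0.29 (SE). Control library B held the highest value, and control library A lay between it and the hace1 MO libraries. At this depth the exact 95% Poisson interval of hace1 MO library A, 4.18 to 7.34 CPM, overlapped that of control library A, 6.72 to 11.8 CPM. Such intervals cover counting error only. The second red-sensitive opsin gene, opn1lw1, ends 1009 bases before opn1lw2 starts and was listed at 0 in every library. Near-identical copies can share reads, so the opn1lw2 value may hold reads of both and is uncertain as a value of 1 gene.

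pde6g (ENSDARG00000022820, chr12:37671564-37679616, plus strand; an older name of pde6gb in RefSeq) encodes the inhibitory subunit that keeps PDE6 inactive in the dark. It was the most abundant of the 8, at 46.4 and 36.8 CPM in hace1 MO libraries, against 65.5 and 115 CPM in control MO libraries. Its means were 41.6 ± 6.73 CPM in hace1 MO embryos and 90.0 ± 34.7 CPM in control MO embryos (SD, n = 2 each), and its log2 fold change of -1.07 ± 0.24 (SE) was the nearest to 0 of the set. The gap between the control libraries, 0.81 on the log2 scale, was larger than that between control library A and hace1 MO library A. Without control library B the log2 fold change was -0.67. A second annotated pde6g line, ENSDARG00000096737, which overlaps the first, was listed at 0 and has no value here.

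Arrestin and recoverin bear on the shut-off of the opsin: arrestin binds the phosphorylated opsin, and recoverin is a calcium sensor that restrains the opsin kinase. sagb (ENSDARG00000038378, chr15:44848055-44870331, plus strand) had 1.503 and 2.42 CPM in hace1 MO libraries, against 6.47 and 4.79 CPM in control MO libraries, a log2 fold change of -1.49 ± 0.36 (SE). rcvrna (ENSDARG00000052223, chr3:47321878-47324041, plus strand) had 2.18 and 1.72 CPM in hace1 MO libraries, against 7.40 and 5.57 CPM in control MO libraries, a log2 fold change of -1.69 ± 0.33 (SE). In both genes control library A was the highest of the 4, the reverse of the order in opn1lw2 and pde6g. These values rest on few reads: sagb had estimated counts of 14.0 and 23.9 in hace1 MO libraries, against 37.4 and 41.1 in control MO libraries. For sagb the 95% intervals of hace1 MO library B (1.56 to 3.61 CPM) and control library B (3.42 to 6.47 CPM) overlapped, whereas for rcvrna the corresponding bounds left a gap, from 2.75 CPM in hace1 MO library B to 4.12 CPM in control library B.

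Among the genes of the disc membrane, abca4b (ENSDARG00000062661, chr2:15023905-15115290, plus strand) encodes a transporter that clears retinaldehyde from the disc interior. It had 1.57 and 1.40 CPM in hace1 MO libraries, against 7.70 and 4.55 CPM in control MO libraries. The means were 1.48 ± 0.13 CPM in hace1 MO embryos and 6.13 ± 2.23 CPM in control MO embryos (SD, n = 2 each), and the log2 fold change was -1.92 ± 0.39 (SE). Its estimated counts had the smallest total of the set, with 14.6 and 13.8 in hace1 MO libraries and 44.5 and 39.1 in control MO libraries, and the log2 fold change was -2.35 without control library B. prom1b (ENSDARG00000034007, chr1:21487025-21531239, minus strand) encodes a prominin, a membrane protein of cell protrusions and of nascent discs that is also made outside the eye. It had 4.81 and 7.03 CPM in hace1 MO libraries, against 13.4 and 14.7 CPM in control MO libraries, a log2 fold change of -1.27 ± 0.25 (SE). Its control libraries lay close together, 0.13 apart on the log2 scale, whereas its hace1 MO libraries were 0.54 apart.

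tulp1a (ENSDARG00000075295, chr23:5513080-5542633, plus strand) encodes a tubby-like protein which in mammals helps to carry proteins to the outer segment. It had 2.98 and 2.19 CPM in hace1 MO libraries, against 6.82 and 8.06 CPM in control MO libraries, a log2 fold change of -1.54 ± 0.31 (SE). rs1a (ENSDARG00000027236, chr11:31119810-31127552, plus strand) encodes a retinoschisin, a secreted protein that in mammals comes from photoreceptors and bipolar cells and helps to hold the retinal layers together. It showed the widest separation of the 8, with 8.56 and 5.41 CPM in hace1 MO libraries, against 31.8 and 34.7 CPM in control MO libraries. The means were 6.98 ± 2.23 CPM in hace1 MO embryos and 33.2 ± 2.03 CPM in control MO embryos (SD, n = 2 each), a log2 fold change of -2.29 ± 0.24 (SE) or 4.89-fold lower. The groups lay far apart beside the gap within either.

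The libraries within a group did not order the 8 genes in 1 way. Library A was above library B in 6 of the 8 genes among hace1 MO libraries and in 3 of the 8 among control MO libraries. The median absolute log2 difference between libraries A and B over the 8 genes was 0.42 in the hace1 MO group and 0.42 in the control MO group, against 0.17 in the hace1 MO group and 0.29 in the control MO group over all tested genes. Of the 8 genes, 6 had a mean level below the median of 17.6 CPM over tested genes, and the part of counting error in this spread was not tested. tulp1a lay nearest to the mean profile of the 8 over the 4 libraries, and rs1a lay farthest from it.

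Per kilobase of annotated exon, the level was highest for pde6g in both groups, at 24.3 ± 3.94 CPM per kb in hace1 MO embryos and 53 ± 20.3 CPM per kb in control MO embryos (SD, n = 2 each). rs1a was next, with a level of 5.27 ± 1.68 CPM per kb in hace1 MO embryos and 25.1 ± 1.53 CPM per kb in control MO embryos. In hace1 MO embryos the level then ran opn1lw2, rcvrna, prom1b, sagb and tulp1a, and in control MO embryos rcvrna, opn1lw2, sagb, prom1b and tulp1a. In this middle stretch the libraries of neighbouring genes overlapped within a group, so these neighbours do not differ beyond their spread, except at the step below rcvrna in hace1 MO embryos and the step below opn1lw2 in control MO embryos. abca4b was lowest, at 0.20 ± 0.02 CPM per kb in hace1 MO embryos and 0.82 ± 0.30 CPM per kb in control MO embryos.

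Exon by exon, the lower level held in nearly all regions with enough counts, but some genes had few of these. In abca4b 1 of 51 regions reached 10 counts over the 4 libraries, in sagb 3 of 14, in tulp1a 6 of 20 and in prom1b 9 of 27. In the other genes every region did. The 8 genes have 131 exon regions, of which 38 reached that number. Of these, 37 had a lower mean CPM in hace1 MO embryos, and 30 had both hace1 MO libraries below both control MO libraries. Over all 93336 exon regions of tested genes with as many counts, both hace1 MO libraries lay below both control MO libraries for 21.9%. Among the 38, the exception in mean level was region 25 of prom1b, with 0.14 and 0.74 CPM in hace1 MO libraries, against 0.60 and 0.19 CPM in control MO libraries. These regions were counted in the libraries that the genes were chosen on, so the counts are a description.

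rs1a had all 6 of its exon regions without overlap between the groups, and the log2 ratios of mean CPM ran from -2.80 to -1.74. Its last region, 726 bases long, held 47.0% and 49.4% of the gene's exon counts in hace1 MO libraries, against 35.04% and 42.3% in control MO libraries. In pde6g the last region, 1426 bases long, held 88.0% and 88.7% in hace1 MO libraries, against 81.4% and 89.2% in control MO libraries. Without that region pde6g stood at 5.57 and 4.15 CPM in hace1 MO libraries, against 12.2 and 12.4 CPM in control MO libraries, a log2 ratio of -1.34. The gap between the pde6g control libraries thus lay mostly in the last region. For rcvrna, by contrast, the first region carried most of the separation: without it the log2 ratio was -0.86, from 0.78 and 0.85 CPM in hace1 MO libraries, against 1.53 and 1.43 CPM in control MO libraries. Without its most counted region each of the other 6 genes had a log2 ratio between -2.48 (rs1a) and -1.30 (prom1b).

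**Figure D2:**
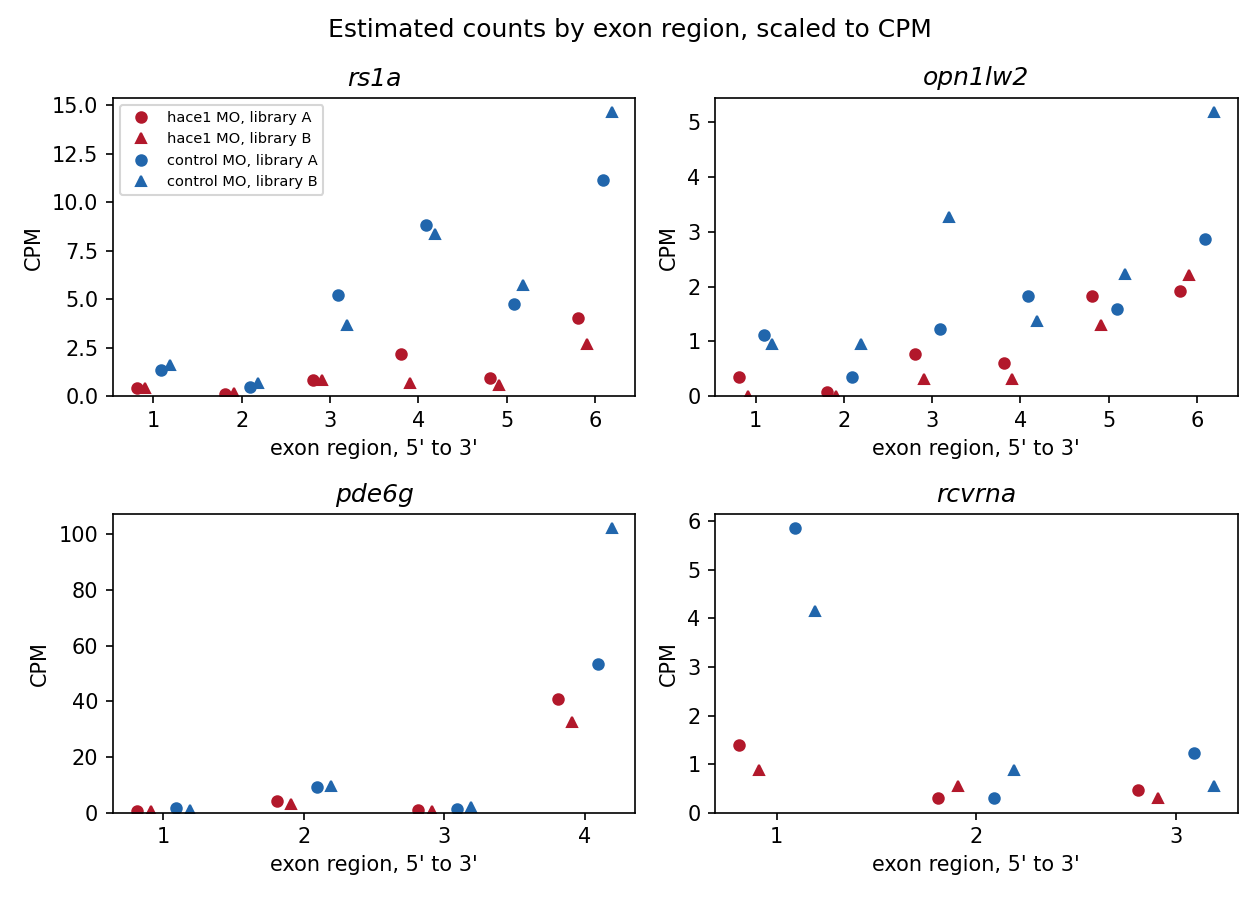
Level of each exon region of rs1a, opn1lw2, pde6g and rcvrna in CPM, ordered 5′ to 3′, with hace1 MO libraries in red left of control MO libraries in blue, circles for library A and triangles for library B. All 6 regions of rs1a are separated between the groups, region 4 of pde6g holds most of its counts, and region 1 carries most of the separation in rcvrna.

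The deposited file also gives the share that the authors estimated for each annotated transcript. The short rs1a transcript rs1a-003 had a share of 6.21% and 3.29% in hace1 MO libraries, against 16.1% and 16.3% in control MO libraries. abca4b-001 had 27.8% and 29.9% in hace1 MO libraries, against 76.5% and 61.9% in control MO libraries. sagb-201 had 13.04% and 19.1% in hace1 MO libraries, against 31.5% and 31.1% in control MO libraries. Of the 20 transcripts listed, 5 had a lower share in both hace1 MO libraries than in either control MO library, 3 had a higher share in both, and 12 overlapped. Of those with a higher share, rs1a-001 had 88.0% and 88.6% in hace1 MO libraries, against 81.2% and 80.3% in control MO libraries. opn1lw2-003 had 5.11% and 2.90% in hace1 MO libraries, against 0.13% and 0.0088% in control MO libraries, and sagb-001 had 28.3% and 33.0% in hace1 MO libraries, against 26.8% and 28.0% in control MO libraries. The shares rest on the few counts above, those of a gene need not add up to the whole, and they were not tested. How often transcripts of other genes separate in the same way was not counted, so nothing is read from the numbers of transcripts. opn1lw2-001, at 38.8% and 72.3% in hace1 MO libraries and 70.9% and 95.5% in control MO libraries, overlapped between the groups, and so did prom1b-001.

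The second zebrafish copies of these genes, and arr3a, a cone arrestin, were not among the 8. saga had 5.53 and 3.96 CPM in hace1 MO libraries, against 12.6 and 7.74 CPM in control MO libraries (log2 fold change -1.03 ± 0.31 SE, limma-voom adjusted p = 0.0853). arr3a had 3.24 and 4.41 CPM in hace1 MO libraries, against 7.33 and 6.99 CPM in control MO libraries (log2 fold change -0.91 ± 0.28 SE, adjusted p = 0.0970). abca4a had 1.59 and 1.08 CPM in hace1 MO libraries, against 3.198 and 2.73 CPM in control MO libraries (log2 fold change -1.14 ± 0.39 SE, adjusted p = 0.121). For these 3 genes the groups did not overlap, but none passed the test. Likewise prom1a, with 16.1 and 21.7 CPM in hace1 MO libraries and 27.3 and 23.2 CPM in control MO libraries, had a log2 fold change of -0.42 ± 0.20 (SE, adjusted p = 0.250). tulp1b overlapped between the groups (log2 fold change -0.71 ± 0.52 SE, adjusted p = 0.441), and pde6h, the gamma subunit of cone PDE6 in mammals, like opn1lw1 was listed at 0. None of the 5 tested paralogues was called (3 had an unadjusted p below 0.05). The 8 were chosen on this contrast, so the lack of calls outside them is partly set by that choice. How many of all tested genes had an unadjusted p below 0.05 was not counted, so nothing is read from such numbers here or below. saga was called with the replicate block (adjusted p = 0.0104), with sample quality weights (0.0426) and with the deposited log2 values (0.0348), and abca4a with the deposited log2 values (0.0377). Without control library A the log2 fold change was -0.72 for saga, -1.03 for abca4a, -0.86 for arr3a and -0.30 for prom1a. Without control library B it was -1.43 for saga, -1.28 for abca4a, -0.95 for arr3a and -0.55 for prom1a. Whether a member's fold change differed from that of its paralogue was not tested.

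Other photoreceptor genes were taken from lists of opsins, transducin and PDE6 subunits, channels and cyclases, shut-off proteins, disc and outer segment proteins, transcription factors and synaptic proteins. Of 115 annotated genes outside the 8, 59 were listed at 0, 11 had too few counts to test and 45 were tested. Among those listed at 0 were defining markers, such as rho (the rod opsin), gnat1, pde6b, pde6c, crx, nr2e3 and nrl, so the photoreceptor programme is seen here only in part. The 8 genes, all called lower, were left out, which by itself lowers the number called among the 45. Of the 45, limma-voom with Benjamini-Hochberg adjustment over all genes called 2 lower (4.44%) and 1 higher, and 42 did not pass. Over all tested genes 1.38% were called lower and 1.38% higher. The median log2 fold change of the 45 was -0.56, with 37 (82.2%) below 0, against 49.5% of all tested genes. Both hace1 MO libraries lay below both control MO libraries for 30 of the 45 (66.7%), against 26.9% of all tested genes. The lists were chosen with earlier results of these data known, so these shares are a description. A majority below 0 was not particular to photoreceptor genes: 21 of 25 lens, 8 of 9 amacrine and 7 of 7 bipolar genes tested also lay below 0. The groups lay apart in that direction for 8 of 9 amacrine and 4 of 7 bipolar genes. For the lens they did so in 7 of 25, beside 26.9% of all tested genes. The summed lens level overlapped, with 11096 and 9032 CPM in hace1 MO libraries, against 9226 and 14902 CPM in control MO libraries. Below 0 were also 1 of 6 ganglion cell, 2 of 3 horizontal cell and 5 of 10 Müller glia genes. Pigment epithelium had 2 of 6, the pineal organ 2 of 3 and the ciliary marginal zone 0 of 8.

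samd7, which encodes a repressor that in mouse silences other genes in rods, fell: it had 11.4 and 10.6 CPM in hace1 MO libraries, against 27.8 and 25.6 CPM in control MO libraries (log2 fold change -1.27 ± 0.19 SE, limma-voom adjusted p = 0.009995). cplx4c, a complexin of the kind found at ribbon synapses, fell to 7.28 and 6.42 CPM in hace1 MO libraries, against 15.2 and 12.4 CPM in control MO libraries (log2 fold change -0.99 ± 0.23 SE, adjusted p = 0.0488). rx1, a retinal homeobox gene that is also on the ciliary marginal zone list, rose to 57.3 and 64.2 CPM in hace1 MO libraries, against 29.6 and 40.3 CPM in control MO libraries (log2 fold change 0.80 ± 0.19 SE, adjusted p = 0.0476). Without hace1 MO library A none of the 3 was called, and likewise without hace1 MO library B, with adjusted p from 0.270 to 0.539. The calls of cplx4c and rx1 also ended with no filter on low counts (adjusted p = 0.0542 and 0.0523) and with the exonic length trend removed (0.0684 and 0.0662), and with limma-trend (0.0513 and 0.0524), and that of rx1 with the deposited log2 values (0.0835).

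By role, the lists were counted with the 8 genes, all of them called lower, left out, which by itself lowers the number called. All log2 fold changes lay below 0 in 6 channel and cyclase, 4 recoverin, arrestin and RGS9, and 10 disc and outer segment genes tested. The 4 include saga and arr3a, described above with the paralogues, so the lists and the paralogues are not separate sets. The list medians were -1.05, -0.97 and -0.56, and limma-voom called none of these remaining 20 (11 had an unadjusted p below 0.05). The share of all tested genes below that unadjusted threshold was not counted. Of the 20, 4 were called lower with the replicate block, 6 with the deposited log2 values and 2 with sample quality weights. Over all 10832 tested genes these settings called 491, 301 and 370 lower. Calls among the 20 also changed when either control library was left out. gc3, a photoreceptor guanylate cyclase, had 0.96 and 1.32 CPM in hace1 MO libraries, against 4.33 and 2.18 CPM in control MO libraries (log2 fold change -1.34 ± 0.45 SE, limma-voom adjusted p = 0.114; 0.0324 with the replicate block and 0.0388 with the deposited log2 values). slc24a1, the rod sodium-calcium exchanger in mammals, had a log2 fold change of -0.46 ± 0.42 (SE), and rgs9b, a regulator that ends transducin signalling, one of -0.56 ± 0.25 (SE). opn1mw2, a green-sensitive cone opsin and the only other opsin tested, had 0.86 and 1.27 CPM in hace1 MO libraries, against 2.31 and 2.85 CPM in control MO libraries (log2 fold change -1.28 ± 0.41 SE, adjusted p = 0.105; 0.0213 with the deposited log2 values).

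Outside the 8 genes, the 7 tested transducin and PDE6 genes were divided, 4 below 0 and 3 above, with a median of -0.21. None was called by limma-voom (2 had an unadjusted p below 0.05), and 1 was called lower with the replicate block. That setting called 491 of all 10832 tested genes lower. The calls in this list changed when either control library was left out. gnat2, the cone transducin alpha subunit, had 3.53 and 2.63 CPM in hace1 MO libraries, against 2.25 and 2.79 CPM in control MO libraries (log2 fold change 0.24 ± 0.35 SE, limma-voom adjusted p = 0.726); it was picked out after its values were seen. gnb1b, a widely expressed beta subunit, had a log2 fold change of -0.21 ± 0.17 (SE) and pde6d, a prenyl-binding protein found in many cells, one of 0.10 ± 0.30 (SE). Without control library A pde6d stood at -0.44, and without control library B at 0.74. gnb1b hardly moved, at -0.20 without control library A and -0.21 without control library B. In the disc and outer segment list the most abundant genes were atp8a2 and unc119.1, which are not limited to photoreceptors, with log2 fold changes of -0.23 ± 0.18 and -0.04 ± 0.16 (SE).

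**Figure D3:**
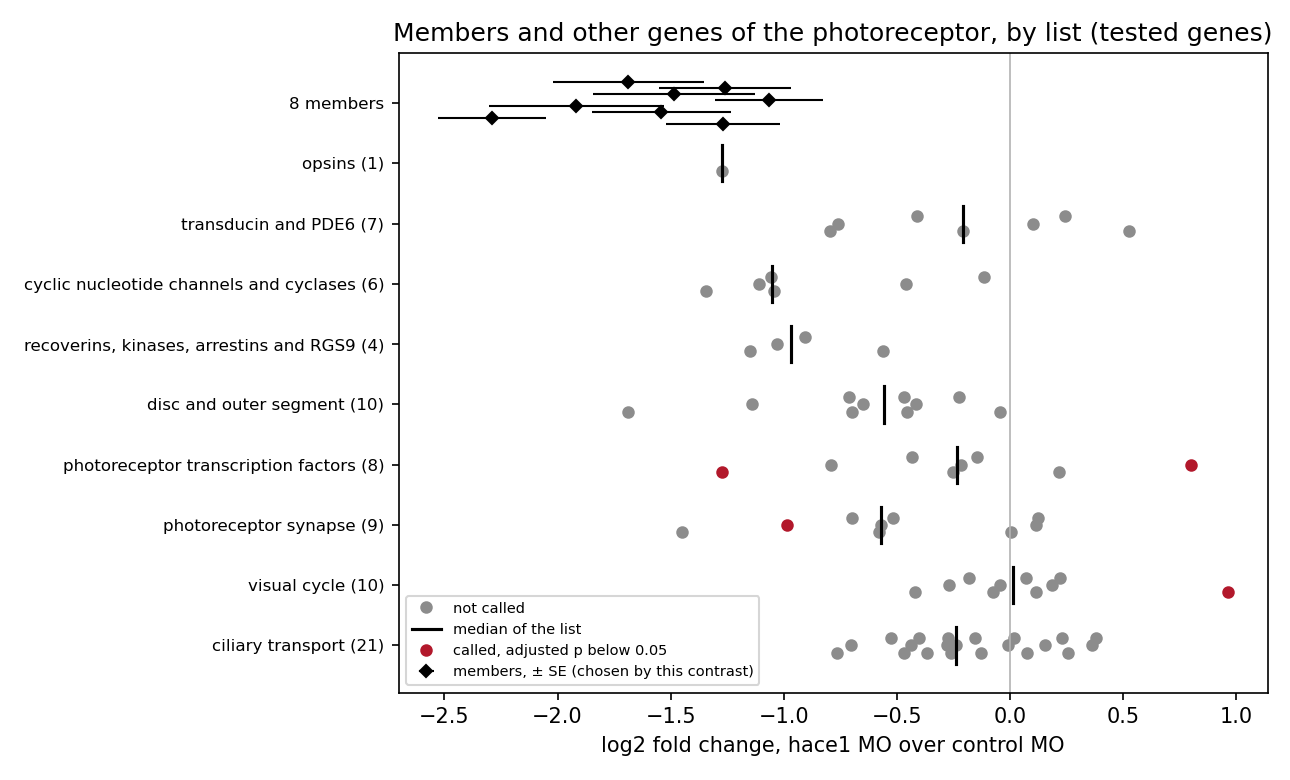
Log2 fold change, hace1 MO over control MO, of the 8 genes (black diamonds with SE) and of the tested genes of 9 lists (circles, red where called at an adjusted p below 0.05, with a bar at the list median and the number tested in brackets). The 8 genes were chosen by this contrast. Of the lists, opsins (1 gene), channels and cyclases, recoverins and arrestins, and disc genes lie wholly below 0, while the visual cycle list has its median at 0.01.

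The visual cycle, which renews retinaldehyde largely in the pigment epithelium, had 5 of 10 tested genes below 0 and a median log2 fold change of 0.01. rdh10b, a retinol dehydrogenase, rose to 17.6 and 20.3 CPM in hace1 MO libraries, against 11.4 and 8.52 CPM in control MO libraries (log2 fold change 0.96 ± 0.22 SE, limma-voom adjusted p = 0.0467), and lost its call without either hace1 MO library (adjusted p = 0.410 without A and 0.537 without B), with no filter (0.0519), with limma-trend (0.0531) and with the length trend removed (0.0663). Of 21 ciliary transport genes, which serve cilia throughout the embryo, limma-voom called none (3 had an unadjusted p below 0.05) and the median was -0.24. Their most abundant genes, ift20 and ift80, had log2 fold changes of -0.53 ± 0.20 and -0.27 ± 0.21 (SE).

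Markers of other cells of the eye and of the pineal organ were set beside the 8 genes, and their part in the values above was not tested. The 7 tested bipolar genes had a median log2 fold change of -0.86, and 4 of the 7 lay lower in both hace1 MO libraries than in either control MO library. Their summed level was 77.7 and 62.6 CPM in hace1 MO libraries, against 150 and 142 CPM in control MO libraries. Much of the summed level of these 7 genes came from vsx1 alone. Of them vsx1, a bipolar homeobox gene, fell to 37.3 and 34.1 CPM in hace1 MO libraries, against 95.2 and 97.3 CPM in control MO libraries (log2 fold change -1.43 ± 0.16 SE, limma-voom adjusted p = 0.00102; 0.0872 without hace1 MO library A and 0.147 without B). The 9 amacrine genes had a median of -0.54, and gad2, which makes the transmitter GABA in many neurons, fell to 49.9 and 46.7 CPM in hace1 MO libraries, against 85.9 and 85.6 CPM in control MO libraries (log2 fold change -0.83 ± 0.16 SE, adjusted p = 0.0295). Its adjusted p was 0.416 without hace1 MO library A, 0.537 without B and 0.0589 with the length trend removed.

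No gene was called among the tested genes for ganglion cells (6, median 0.37), horizontal cells (3, median -0.03), Müller glia (10, median 0.07), pigment epithelium (6, median 0.21), the pineal organ (3, median -0.68) and the lens (25, median -0.23), by limma-voom with the same adjustment, and 16 of these 53 had an unadjusted p below 0.05. With the replicate block 2 were called lower and 2 higher, among them fabp7a lower (adjusted p = 0.0113), which was also called lower with sample quality weights (0.0366). Over all 10832 tested genes the replicate block called 491 lower and 423 higher. Calls among the 53 also changed when either control library was left out. The most abundant of each kind included sncga (0.50 ± 0.19 SE) and alcama (0.11 ± 0.17) of ganglion cells, onecutl (0.32 ± 0.17) and lhx1a (-0.03 ± 0.18) of horizontal cells, and apoeb (0.53 ± 0.19) and fabp7a (-0.77 ± 0.22) of glia, all as log2 fold changes. For the pigment epithelium dct and bhlhe40 had log2 fold changes of 0.22 ± 0.18 and 0.47 ± 0.17 (SE), for the pineal organ gngt2b (a transducin gamma subunit that is also on the transducin list and among the 45) and tph2 had -0.80 ± 0.33 and 0.15 ± 0.34, and for the lens crygm2d10 and crybb1l2 had -0.22 ± 0.29 and -0.002 ± 0.27. Picked as the most abundant of their lists in whole embryos, these genes may hold RNA of other tissues, and their values need not describe the eye. All 8 tested genes of the ciliary marginal zone, where retinal progenitors lie, were above 0, with a median of 0.32, and rx1 was the 1 called. Their summed level was 5931 and 6783 CPM in hace1 MO libraries, against 4903 and 5767 CPM in control MO libraries. The groups did not overlap but lay close beside the gap within either. Most of that sum came from genes other than rx1. Of the 8 genes, 5 lay higher in both hace1 MO libraries than in either control MO library. The share of all tested genes that did so was not counted.

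Similar profiles were sought among 7518 other tested genes whose mean reached 5 CPM. Genes with a placeholder name, or a name ending in a point and digits, were not candidates. The 5 whose centred log2 CPM lay nearest to the mean profile of the 8 genes over the 4 libraries were vsx1 (Euclidean distance 0.12), cacna1c (0.18), thrab (0.19), nfixb (0.19) and roraa (0.21). They encode a homeobox factor, a calcium channel subunit, a thyroid hormone receptor, a nuclear factor I and a retinoid-related orphan receptor. Their log2 fold changes ran from -1.51 (nfixb) to -1.42 (roraa), which follows from how they were found. With 4 libraries in 2 groups, such likeness mainly restates the difference between the groups.

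The direction in the 8 genes did not turn under any of the 12 other settings, and the log2 fold changes moved most when 1 library was left out. pde6g ran from -1.46 to -0.67, abca4b from -2.35 to -1.58, rs1a from -2.61 to -1.95 and opn1lw2 from -1.53 to -0.92. Since the genes were chosen for being lower in these groups, a kept direction is no sign of stability.

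**Figure D4:**
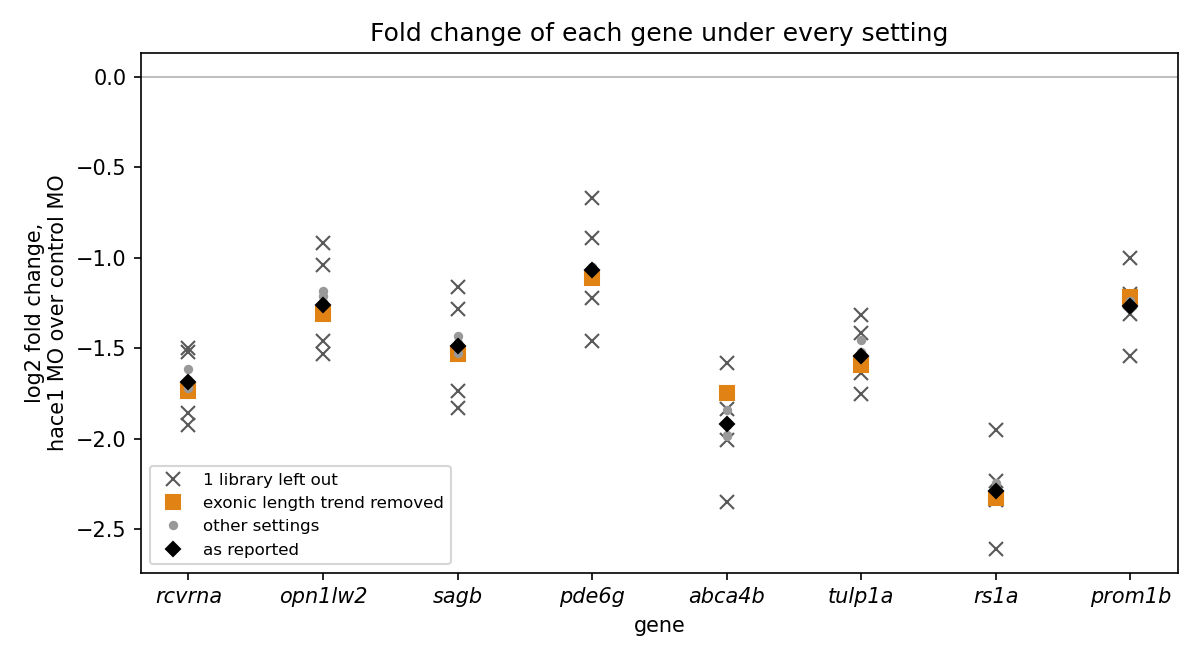
Log2 fold change, hace1 MO over control MO, of each of the 8 genes as reported (black diamond), with 1 library left out (crosses), with the trend against exonic length removed (orange squares) and under the other settings (grey points). The crosses spread farthest, in pde6g from -1.46 to -0.67, and every value lies below 0.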

How the data were processed

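RNA from 4 pooled whole-embryo libraries, 2 per injected morpholino, was run on an Ion Proton sequencer, 2 libraries to a chip, per the labels' protocols. The pairs on each chip are not stated in those sources, and if a group's libraries shared a chip, its effect and that of the morpholino cannot be told apart. The submitters' processing notes list the build Zv9 and, without role or order, DESeq, Bowtie2 2.0.2, TopHat2 2.0.6 and cutadapt 1.2.1. The annotation release, the strand setting and the way reads were counted are not given there. Estimated counts per gene and per exon, and shares per transcript, were deposited by the authors inside an annotation file, and 94.2% of the values above 0 were not whole. A second table from the authors holds log2 values centred per gene, and for 98.9% of 12216 genes with a count in every library they equalled, within 0.001, the log2 of median-of-ratios scaled counts minus the gene's median.

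Counts were scaled by the trimmed mean of M values (30% of log ratios and 5% of mean levels trimmed). Genes reaching 10 counts (at median depth) in 2 or more libraries and 15 in total were tested with limma-voom (limma 3.58.1, R 4.3.3) on the group alone, with Benjamini-Hochberg adjustment over all 10832 genes tested, and called at an adjusted p below 0.05. The fit was tested on simulated data. A pseudocount of 0.1 CPM was added for differences between libraries of a group and for profiles, and Poisson intervals are exact at 95%. Library totals of 5192490 to 10413981 leave genes of a few CPM with under 100 counts each.

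The 8 genes, the gene lists and the tests were chosen with earlier results of these data known. Of each list, the text names up to 4 called genes, by adjusted p, or the 2 of highest mean CPM if no gene was called, beside the paralogues and the 5 genes of nearest profile. Other settings were median-of-ratios scaling, leaving genes over 1% of a library out of the scaling, no filter, each library left out, the library letter as a block, limma-trend (prior count 2), sample quality weights, the deposited log2 values, and removal of a lowess trend against exonic length (span 0.3). The labels give same-lettered libraries only a letter in common. Their deviations had a correlation of 0.02, which cannot show whether they shared a source. Promoter and protein sequences were not analysed here.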

Additional observations from a re-analysis of the deposited data

How the results depend on the processing

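As reported, limma-voom called 299 genes (150 lower, 149 higher) and 3 of the other photoreceptor genes. Counts of all genes called that moved by over 1.5 times were 914 with the replicate block, 649 with sample quality weights, 496 with the authors' deposited log2 values (301 lower, 195 higher) and 116 with the exonic length trend removed (45 lower, 71 higher). For the other photoreceptor genes they were 12 with the replicate block, 9 with the deposited log2 values, 6 with sample quality weights, and 1 each with no filter, with limma-trend and with the length trend removed. Leaving out 1 library gave 8 to 2572 genes called, namely 13 without hace1 MO library A, 8 without hace1 MO library B, 1549 without control library A and 2572 without control library B, and 0 to 17 other photoreceptor genes called. Without a library its group has 1 left, assumed to vary like the other group. Of the 8 genes, 8 were called as reported and with either control library left out, 7 with no filter and with the deposited log2 values, 6 with limma-trend, 4 with the length trend removed, 1 without hace1 MO library A and 0 without hace1 MO library B. The causes were not tested. Without control library B abca4b had a log2 fold change of -2.35, and without hace1 MO library B rs1a had -1.95. Of 17 turned directions none was in a gene called as reported. crybb1l2, reported at -0.002, was 0.013 with median-of-ratios scaling, 0.0029 with the replicate block, 0.0083 with quality weights, 0.0011 with the deposited log2 values, and unc119.1 was 0.057 with the length trend removed. With 1 library left out, crybb1l2 ran from -0.43 to 0.40, pde6d from -0.44 to 0.74, slc24a1 from -1.14 to 0.063, atp8a2 from -0.46 to 0.0049, unc119.1 from -0.16 to 0.066, ift80 from -0.60 to 0.0074, alcama from -0.012 to 0.23, lhx1a from -0.23 to 0.16, tph2 from -0.18 to 0.42 and crygm2d10 from -0.72 to 0.26. The letters share no source in the labels, and a block on them rests on a correlation of 0.02. Low counts limit precision for most of the 8 genes: only pde6g passed 300 counts in every library.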

Other observations

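The nearest tested genes on either side of each of the 8 genes were looked up after the values of the 8 had been seen. Of these 16 neighbours, 10 had a log2 fold change below 0, the median was -0.11, and limma-voom called 1 lower and 0 higher. The neighbours of abca4b stood 5402 and 5381 bases away and had log2 fold changes of 0.28 ± 0.16 (arhgap29b) and -0.04 ± 0.33 (tecrl2). ppef1 lay 1870 bases downstream of rs1a, with 1.36 and 1.88 CPM in hace1 MO libraries, against 2.24 and 1.204 CPM in control MO libraries. Of the 16, 7 lay lower in both hace1 MO libraries than in either control MO library, against 26.9% of all tested genes. The largest fold change was that of tfe3b, downstream of opn1lw2, with 0.47 and 1.36 CPM in hace1 MO libraries, against 2.47 and 2.197 CPM in control MO libraries (-1.45 ± 0.50 SE, adjusted p = 0.120). arl16, downstream of rcvrna, had 3.00 and 3.39 CPM in hace1 MO libraries, against 7.99 and 4.91 CPM in control MO libraries (-0.92 ± 0.33 SE, adjusted p = 0.129). The 1 called was mb21d2b, 590115 bases downstream of sagb, at 10.9 and 12.7 CPM in hace1 MO libraries, against 22.8 and 21.7 CPM in control MO libraries (log2 fold change -0.91 ± 0.20 SE, adjusted p = 0.0412), and its call was lost without hace1 MO library A (0.451) or B (0.537) or with the exonic length trend removed (0.0629). atg16l1, 6177 bases upstream of sagb, had 27.2 and 23.2 CPM in hace1 MO libraries, against 55.4 and 37.1 CPM in control MO libraries (-0.84 ± 0.21 SE, adjusted p = 0.0522) and was called without either control library (0.0171 without A, 8.51e-09 without B).

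By exonic length, genes called lower gathered among long genes: tested genes were divided into 5 classes of about equal size, and in the longest class (4236 bases and over), 60 were called lower and 10 higher, with a median log2 fold change of -0.12, against 12 lower and 42 higher in the shortest class (up to 1464 bases, median 0.06). The 8 genes lay in all 5 length classes, with rcvrna and rs1a in the shortest and abca4b in the longest.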
